A study of Mus musculus with 6 samples.

Results

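Transcripts of 10 genes that earlier work reported to undergo C-to-U editing by APOBEC1 in mouse macrophages were followed through a table of Argonaute (Ago) footprints. The genes were B2m, Cd36, App, Serinc1, Sh3bgrl, Tmem30a, Cmtm6, Rab1, Anxa5 and Sep15. All footprints that overlapped one of these genes on its own strand in the GENCODE vM1 annotation were taken. They numbered 39 of the 6270 footprints in the table, and the 10 genes were among 2221 gene symbols with at least 1 footprint. No measured occupancy entered this choice, but the genes were named with earlier results of these data known.

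The footprints come from HITS-CLIP, in which RNA is cross-linked to Ago proteins, immunoprecipitated with them (antibody 2A8) and sequenced. The cells were bone marrow derived macrophages matured with M-CSF. The KO group held 3 libraries from mice without APOBEC1 (genotype label APOBEC1 KO, strain C57BL/6), and the WT group held 3 libraries from wild-type C57BL/6 littermates. Mice were 6 to 12 weeks old. The labels call the mice APOBEC1-deficient, and the deleted part of the gene is given by no source used here. The authors' value for each footprint is its Ago occupancy, a ratio of footprint signal to the RNA-Seq expression of the transcript, with 1 value for the KO group and 1 for the WT group. The number of KO and of WT libraries that held the footprint stands beside it. With 1 value per genotype there is no replicate error, SD or test of KO against WT, and every difference below is a description of these libraries. A higher ratio can come from more footprint signal or from a lower expression divisor, and in bulk cultures fewer expressing cells and less RNA per cell cannot be told apart. Even a footprint held by all 3 libraries of one genotype and by none of the other could not go below an exact two-sided p of 0.10 (Fisher's exact test).

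APOBEC1 is a cytidine deaminase that turns chosen cytidines of mRNA into uridine. Its classical substrate is the mRNA of apolipoprotein B in the small intestine, where editing creates a stop codon, while the sites reported in macrophages lie in 3′ UTRs. The edited C commonly lies in an A- and U-rich stretch, upstream of a mooring sequence to which the enzyme and its cofactors bind. Ago proteins carry miRNAs and bind the same 3′ UTRs, mostly where the RNA pairs with the seed of the miRNA. The study set Ago footprints against APOBEC1 editing events, per its design text. Positions of edited sites were not used here, since no source used here gives them.

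The sequences below show where a miRNA of 28 families searched could pair inside these footprints. A match to bases 2 to 8 of the miRNA was found in 7 of the 39 footprints, 17.9%, against 20.9% of all 6270 footprints. Windows of the same length 100 nt away held a match for 5 and 6 of the 39 on the sides of higher and lower coordinates. That is 12.8% and 15.4% of the members, against 17.8% and 17.5% of all footprints. Mature miRNAs (RefSeq, GRCm38.p6) are printed 5′ to 3′ with the seed in capitals, and each site is mouse reference sequence (mm9) on the strand of the gene with the bases matched to the seed in capitals.
miR-23a-3p: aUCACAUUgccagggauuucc
Rab1 footprint 6, chr11:20126339-20126345, plus strand: gaatagaaagcaggaAATGTGAttgcccta
miR-155-5p: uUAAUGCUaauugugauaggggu
Rab1 footprint 6, chr11:20126317-20126323, plus strand: tttaAGCATTAgaatagaa
miR-181a-5p: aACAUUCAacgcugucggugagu
Tmem30a footprint 4, chr9:79617810-79617816, minus strand: gacttattcctgatgTGAATGTaaattatt
Sep15 footprint 2, chr3:144260391-144260397, plus strand: ttgtaaTGAATGTgccacata
miR-16-5p: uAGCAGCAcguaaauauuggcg
App footprint 2, chr16:84955013-84955019, minus strand: tcttactgtacagatTGCTGCTt
miR-26a-5p: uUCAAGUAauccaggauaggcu
Sh3bgrl footprint 3, chrX:106356652-106356658, plus strand: tgtacctttttcccaTACTTGAttttt
miR-191-5p: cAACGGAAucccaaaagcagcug
App footprint 1, chr16:84955464-84955470, minus strand: gaaagaaacaaacccTTCCGTTtatt

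Footprints are numbered from the stop codon, and here and below their coordinates are mm9, counted from 1. The sites printed are those of 6 of the 7 footprints. Rab1 footprint 6 held sites for both miR-23 and miR-155, and miR-181 had a site in the footprints of a pair of genes. The miR-181 site of Tmem30a was followed by an A, the extended form of a seed site. The 7 footprints with a match split into 3 higher (42.9%) and 4 lower in KO, and 49.1% of all footprints with a match were higher. A match is a run of letters and not a measured miRNA binding event. None of the footprints that led Cd36, App, Sh3bgrl, Rab1, Anxa5, Serinc1, Tmem30a, Cmtm6 or Sep15 in occupancy, and not the B2m footprint, held a match to these families.

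All 39 footprints lay in annotated 3′ UTRs. Measured along the longest annotated 3′ UTR of its gene, the middle of 12 footprints fell in the 25% nearest the stop codon, of 6 in the next 25%, of 12 in the 25% after that and of 9 in the last 25%. Their median position was 55.3% of the way from the stop codon, against 44.4% for the 5880 footprints of the table that could be placed in this way. From the stop codon on, these parts held 30.8%, 15.4%, 30.8% and 23.1% of the members. They held 30.9%, 24.2%, 22.3% and 22.6% of the 5880. Footprints were 63 to 184 nt long (median 70 nt), and neighbours on the same 3′ UTR were 8 to 1294 nt apart (median 268 nt, 29 gaps). They covered between 11.2% of the 3′ UTR in Cmtm6 and 36.5% in Anxa5.

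**Figure D1:**
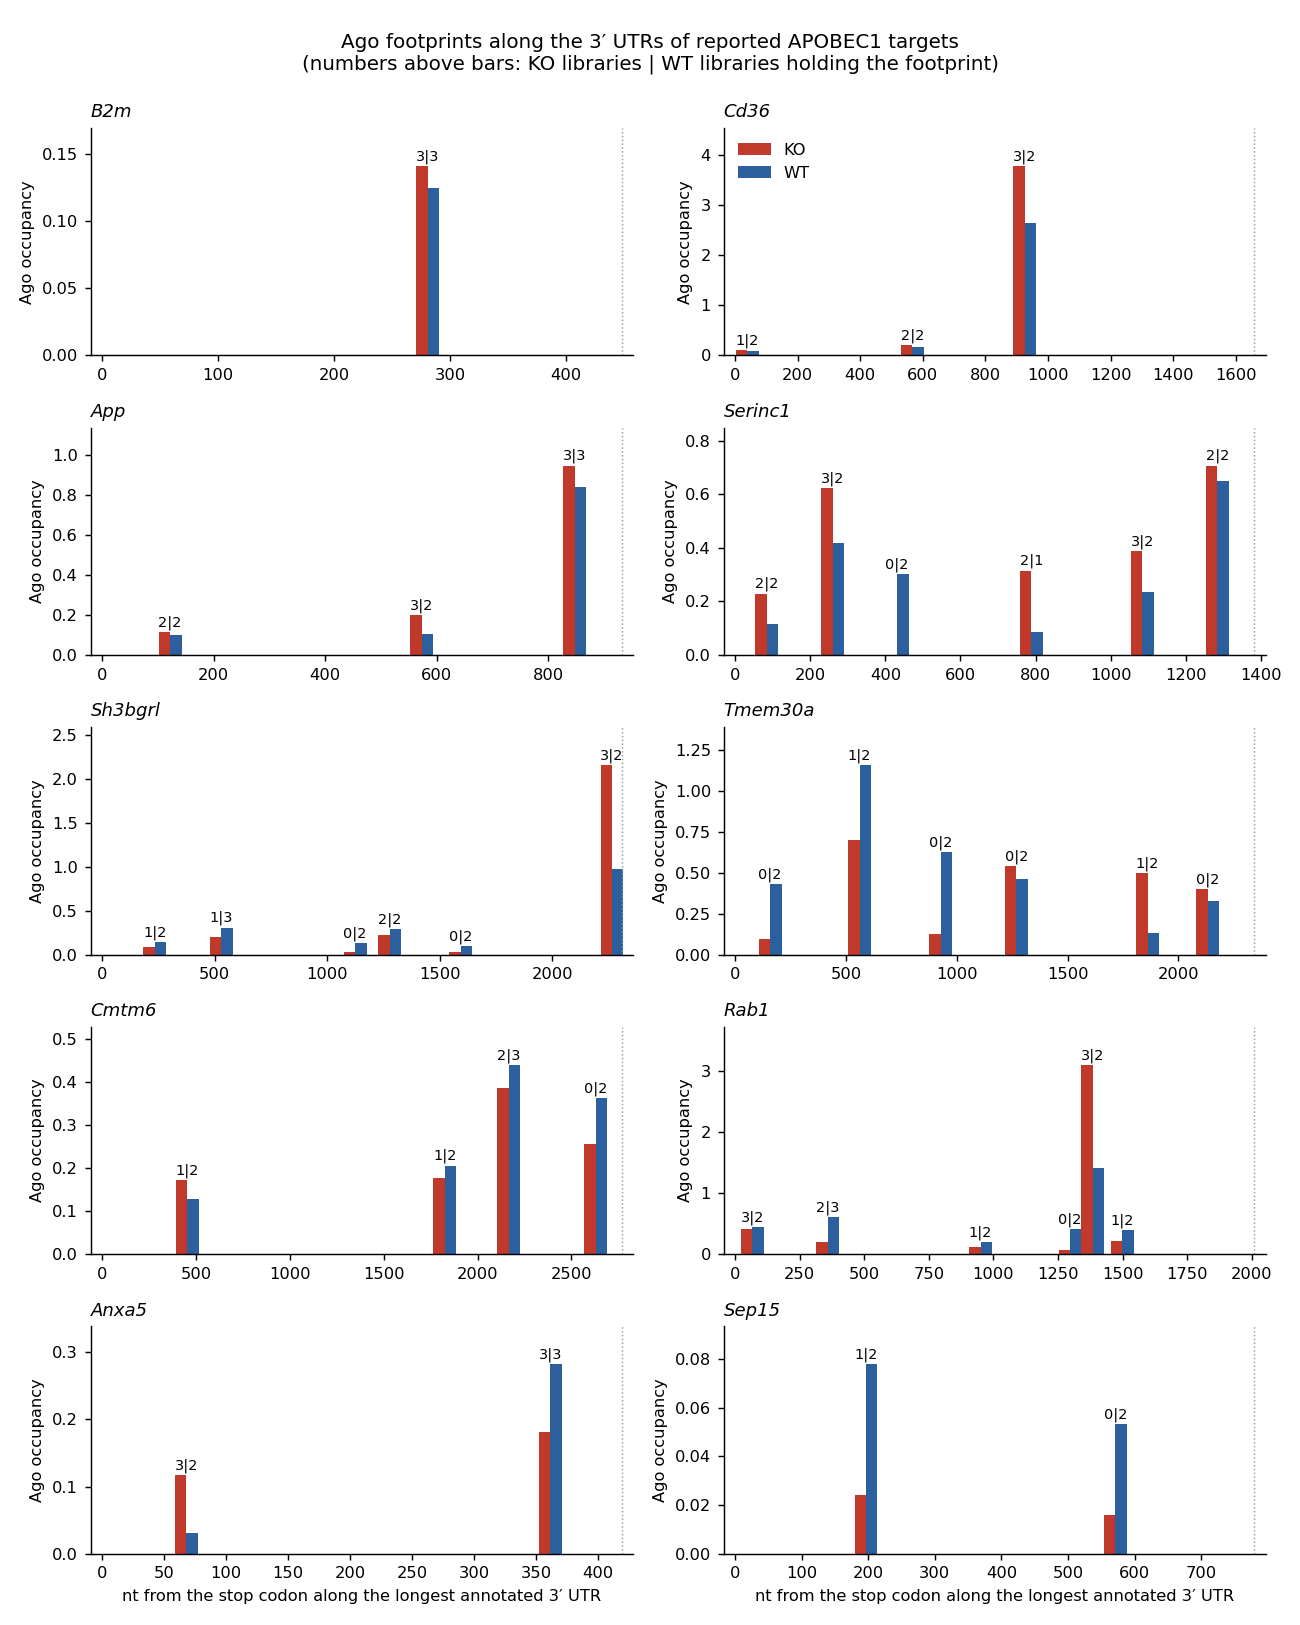
Ago occupancy (the authors' ratio, linear axis) of each of the 39 footprints, placed by distance from the stop codon along the longest annotated 3′ UTR, whose end is the dotted line. Red bars are KO and blue bars WT, drawn side by side around the middle of the footprint, and the numbers above give the KO and WT libraries that held it. In Cd36, App, Sh3bgrl and Rab1 a single footprint stands above the others in KO and in WT.

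Among immune and surface proteins, Ago occupancy was higher in KO at each footprint of B2m, Cd36 and App, with log2 ratios of 0.13 to 0.93, while 3 of the 4 footprints of Cmtm6 were lower. B2m, which forms the light chain of MHC class I molecules, had only 1 footprint (chr2:121978621-121978683, 250 to 312 nt past the stop codon). Its occupancy was 0.141 in KO and 0.125 in WT (log2 ratio 0.18). All 6 libraries held it, although the KO value stood at percentile 23.0 and the WT value at percentile 14.5 of the table. A low ratio to transcript expression and presence in every library were thus found together at B2m.

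Cd36, a scavenger receptor for oxidised lipoproteins and fatty acids, carried the strongest of the 39 footprints. Footprint 3 (chr5:17288211-17288273, minus strand) had 3.78 in KO and 2.64 in WT, and was held by 3 KO and 2 WT libraries. These values stood at percentiles 98.3 and 96.3 of the table. Footprint 2 had 0.198 in KO and 0.167 in WT, and footprint 1, which began 6 nt after the stop codon, had 0.0987 in KO and 0.0901 in WT. The 3 log2 ratios were 0.52, 0.25 and 0.13 in this order. Footprint 3 alone made up 92.7% of the summed occupancy of Cd36 in KO and 91.1% in WT.

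App, the amyloid precursor protein, was likewise led by a single footprint near the end of its 3′ UTR. Footprint 3 (chr16:84954737-84954801, minus strand) had 0.949 in KO and 0.839 in WT, was held by all 6 libraries and ended 52 nt before the annotated 3′ end. Footprint 2, which holds the miR-15/16 site, had 0.201 in KO and 0.105 in WT (log2 ratio 0.93), in 3 KO and 2 WT libraries. Footprint 1, with the miR-191 site, had 0.115 in KO and 0.0996 in WT. The log2 ratios of footprints 1 and 3 were 0.20 and 0.18, so the leading footprint of App had the smallest ratio of the 3.

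Cmtm6, a membrane protein known for keeping the checkpoint ligand PD-L1 at the cell surface, had occupancies within a narrow range. Its strongest footprint, number 3 (chr9:114657825-114657897), had 0.385 in KO and 0.439 in WT, in 2 KO and 3 WT libraries. Footprint 4 had 0.255 in KO, where no library held it, and 0.363 in WT. Footprint 2 had 0.177 in KO and 0.205 in WT, and footprint 1 had 0.171 in KO and 0.127 in WT. All 4 log2 ratios lay between -0.50 and 0.43.

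Among proteins of membrane lipids, Serinc1 was higher in KO at 5 of 6 footprints, Tmem30a split evenly, and the 2 footprints of Anxa5 went in opposite directions. Serinc1, a multipass membrane protein of the serine incorporator family, had its strongest footprint 63 nt before the 3′ end. That footprint, number 6 (chr10:57235643-57235715, minus strand), had 0.708 in KO and 0.651 in WT. The largest log2 ratio of the gene, 1.84, was that of footprint 4 (chr10:57236134-57236214), with 0.315 in KO and 0.0867 in WT. Footprint 4 was held by 2 KO and 1 WT libraries and was the only one of the 39 that entered the table through KO libraries alone. Entry took at least 2 libraries of 1 genotype, and the 10 members in 0 KO libraries and the 10 in 1 entered through WT libraries alone. Footprints 1, 2 and 5 of Serinc1 had 0.229, 0.622 and 0.389 in KO, against 0.115, 0.419 and 0.237 in WT. Footprint 3 (chr10:57236500-57236563) was listed at 0 in KO, where no library held it, and at 0.301 in WT, where 2 libraries did. It was the only 1 of the 39 listed at 0, against 290 of the 6270 in KO.

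Tmem30a, the subunit that carries phospholipid flippases to the membrane, had 6 footprints, and no more than 1 KO library held any of them, while 2 WT libraries held each. Footprint 2 (chr9:79618492-79618571, minus strand) was the strongest, with 0.702 in KO and 1.16 in WT. Footprints 1 and 3 had 0.0957 and 0.128 in KO, against 0.434 and 0.626 in WT, and had log2 ratios of -2.16 and -2.28. Footprint 5 (chr9:79617198-79617267) went the other way, with 0.501 in KO and 0.134 in WT, the highest log2 ratio of the 39 (1.89). It was held by 1 KO library, and both its KO and its WT value were shared exactly with another footprint of the table. Footprints 4 and 6 had 0.542 and 0.403 in KO, against 0.464 and 0.327 in WT. Footprints 1, 3, 4 and 6 have KO values above 0 although 0 KO libraries held them, and no source used here says how such values were made.

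Anxa5, which binds phosphatidylserine in the presence of calcium, has the shortest of these 3′ UTRs, at 419 nt. Footprint 1 (chr3:36348165-36348231, minus strand), 35 nt into the 3′ UTR, had 0.117 in KO and 0.0305 in WT (log2 ratio 1.88), and was held by 3 KO and 2 WT libraries. Its KO value stood at percentile 18.9 of the table and its WT value, the lowest of the 39, at percentile 1.77. The ratio of this footprint thus rests on a very low WT value. Footprint 2 (chr3:36347862-36347947) had 0.181 in KO and 0.282 in WT (log2 ratio -0.64), in all 6 libraries. The sum over the gene, 0.297 in KO and 0.312 in WT, combines these opposite differences.

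Among the remaining genes, Rab1 and Sh3bgrl each had a leading footprint that was more than 2-fold higher in KO and 5 others that were lower, and both footprints of Sep15 were lower. Only 3 of the 6 Rab1 footprints and 2 of the 6 of Sh3bgrl were in at least 2 KO libraries, the leading ones among them. The rest of these entered the table through WT libraries alone, so their lower KO values are not independent of that entry. Rab1, a GTPase of transport from the endoplasmic reticulum to the Golgi, was led by footprint 5 (chr11:20126197-20126267). Its occupancy was 3.10 in KO and 1.40 in WT (log2 ratio 1.14), in 3 KO and 2 WT libraries. Only 8 nt upstream of it, footprint 4 (chr11:20126101-20126188) had 0.0622 in KO and 0.412 in WT. The log2 ratio of footprint 4, -2.70, was the lowest of the members above 0 in KO and WT, and no KO library held it. Footprint 2 had 0.194 in KO and 0.603 in WT (-1.63), in 2 KO and 3 WT libraries. Footprint 1 had 0.405 in KO and 0.446 in WT, and footprint 6, with the miR-23 and miR-155 sites, had 0.221 in KO and 0.392 in WT. Footprint 3 had 0.124 in KO and 0.196 in WT.

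Sh3bgrl, a small protein with a thioredoxin fold, showed the same split of 1 footprint higher and 5 lower in KO. Footprint 6 (chrX:106357732-106357803), 7 nt before the annotated 3′ end, had 2.16 in KO and 0.972 in WT (log2 ratio 1.15), in 3 KO and 2 WT libraries. The other 5 footprints had 0.0240 to 0.228 in KO and 0.0957 to 0.308 in WT. Of these, footprints 3 and 5 had the lowest log2 ratios, -1.95 and -1.93, and were held by no KO library. Footprint 3 is the one with the miR-26 site.

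Sep15, a selenoprotein of the endoplasmic reticulum, had the lowest summed occupancy of the 10 genes in KO. Footprint 1 (chr3:144260004-144260079) had 0.0243 in KO and 0.0777 in WT, in 1 KO and 2 WT libraries. Footprint 2, which holds a miR-181 site, had 0.0161 in KO, where no library held it, and 0.0532 in WT. Both log2 ratios were close to each other, at -1.62 and -1.63. Neither footprint reached percentile 8 of the table in KO or WT, so the ratio of Sep15 rests on very low values.

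**Figure D2:**
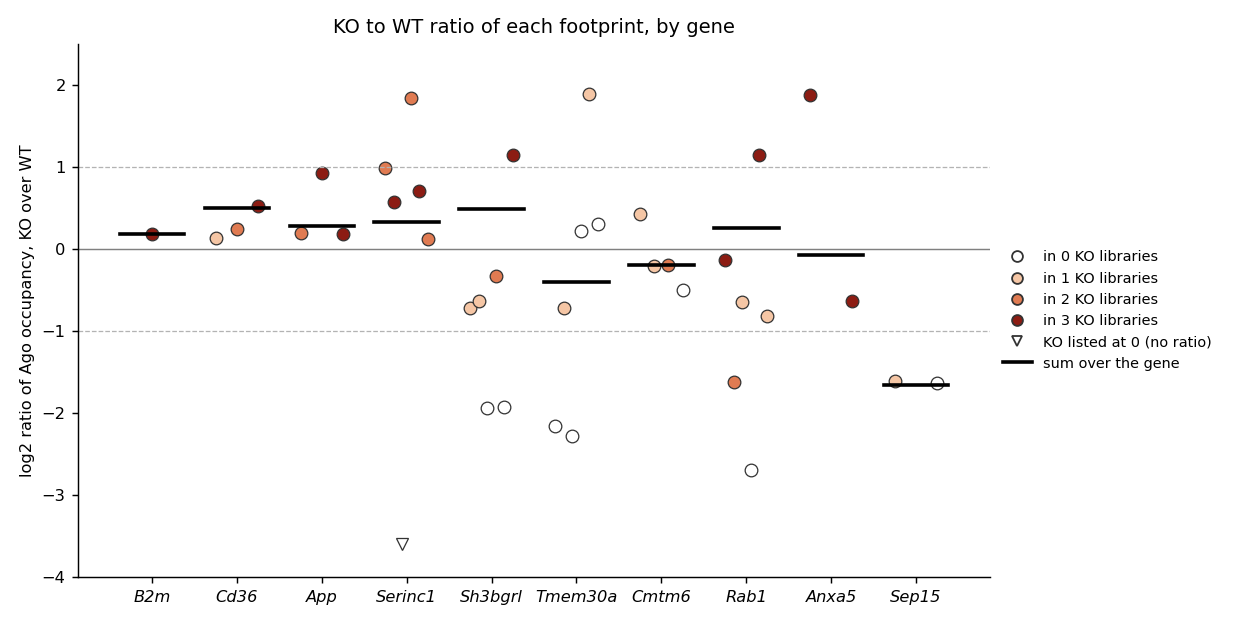
Log2 ratio of Ago occupancy, KO over WT, of each footprint in order from the stop codon, by gene, with the fill showing how many of the 3 KO libraries held it. Black lines are ratios of sums over a gene, dashed lines mark 2-fold, and the triangle is the Serinc1 footprint listed at 0 in KO, drawn off scale. Sh3bgrl and Rab1 each show 1 footprint above 1 and 5 below 0.

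Over all 39 footprints there was no common direction. Occupancy was higher in KO at 19 and lower at 20, and of all 6270 footprints 48.7% were higher and 51.3% lower. At least 2-fold higher in KO were 5 footprints (12.8%), namely Serinc1 footprint 4, Sh3bgrl footprint 6, Tmem30a footprint 5, Rab1 footprint 5 and Anxa5 footprint 1, against 18.9% of all. At least 2-fold lower were 9 (23.1%), against 24.2% of all, counting the Serinc1 footprint listed at 0. All of these 9 but Rab1 footprint 2 were in fewer than 2 KO libraries and entered the table through WT libraries alone. Of the 5 higher, only Serinc1 footprint 4 entered through KO libraries alone. The count of lower footprints is thus not independent of how footprints entered the table. The median log2 ratio was -0.14 (95% order-statistic interval over footprints -0.65 to 0.25) and that of all footprints -0.04 (-0.08 to -0.00). These intervals are for the median and treat footprints as independent, although footprints of a gene share its transcript and all come from the same libraries. They measure neither replicate error nor the range of single ratios, which ran from -2.70 to 1.89 among members above 0 in KO and WT.

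By summed occupancy, 6 of the 10 genes were higher in KO (47.8% of all 2221 gene symbols) and 4 were lower (52.2% of all). None was at least 2-fold higher (11.7% of all) and 1, Sep15, was at least 2-fold lower (17.9% of all). The sums ranged in KO from 0.0403 for Sep15 through 0.141 for B2m, 0.297 for Anxa5, 0.988 for Cmtm6, 1.26 for App, 2.26 for Serinc1, 2.37 for Tmem30a and 2.73 for Sh3bgrl to 4.08 for Cd36 and 4.11 for Rab1. In WT they ranged from 0.125 for B2m and 0.131 for Sep15 to 3.15 for Tmem30a and 3.45 for Rab1. These are sums of ratios to each gene's own expression, in a unit that the sources used here do not give, so their order is not an order of bound molecules. With 1 value per genotype it cannot be said which neighbours in this order differ beyond replicate spread. The genes nearest to these in KO and WT sums together (Euclidean distance of log2 sums over these 2 values) were Gse1 for Cd36 (4.17 in KO and 2.94 in WT), Dazap2 for B2m (0.139 in KO and 0.127 in WT) and Apobr for Rab1 (3.93 in KO and 3.40 in WT). The nearest was Anks1 for App, Wasf2 for Serinc1, Fam102b for Sh3bgrl, Cxcl10 for Tmem30a, Rbm39 for Cmtm6, Gltp for Anxa5 and Ugt1a10 for Sep15.

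How occupancy was divided within a gene does not depend on the expression divisor, provided that all footprints of a gene were divided by the same value, which was not tested. The footprint with the highest occupancy was the same one in KO and WT in all 9 member genes with at least 2 footprints, and in 54.6% of the 1198 genes of the table with at least 2. Its share differed by less than 10 percentage points between KO and WT for Cd36, for App (75.0% in KO and 80.4% in WT), for Serinc1 (31.3% in KO and 36.0% in WT), for Cmtm6 (38.9% in KO and 38.7% in WT) and for Sep15 (60.2% in KO and 59.4% in WT). For Tmem30a it was 29.6% in KO and 36.9% in WT. It was larger in KO for Rab1, with 75.5% in KO and 40.7% in WT, and for Sh3bgrl, with 79.1% in KO and 50.0% in WT. Without these leading footprints, the rest of Rab1 summed to 1.01 in KO and 2.05 in WT, and the rest of Sh3bgrl to 0.572 in KO and 0.971 in WT. Several footprints in these sums entered the table through WT libraries alone, so the lower KO sums are not independent of that entry. For Anxa5 the share of the leading footprint was smaller in KO, with 60.8% in KO and 90.3% in WT. Of the 38 footprints in these 9 genes, 9 differed by more than 10 percentage points of share. No such share over the other genes is given here, so this count cannot be read as many or few.

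**Figure D3:**
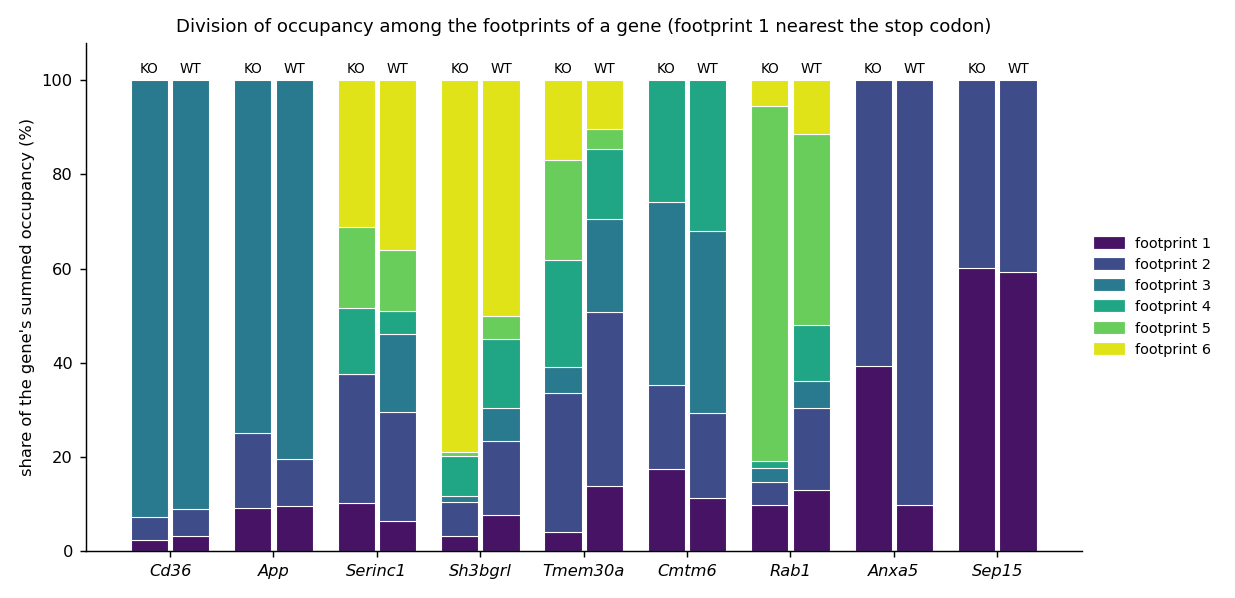
Share of the summed Ago occupancy of a gene (%) held by each of its footprints, in the 9 genes with at least 2, with the KO bar left of the WT bar and footprint 1 (nearest the stop codon) at the bottom. In Sh3bgrl and Rab1 the leading footprint takes 79.1% and 75.5% of the KO bar, against 50.0% and 40.7% of the WT bar.

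Fewer KO than WT libraries held 22 of the 39 footprints (56.4%, against 64.7% of all). At least 2 KO libraries held 19 of the 39 (48.7%, against 40.1% of all footprints), and at least 2 WT libraries held 38 (97.4%, against 94.9% of all). No KO library held 10 of them (25.6%, against 27.9% of all). A footprint entered the table when at least 2 libraries of 1 genotype held it, and for 38 of the 39 the WT libraries met this rule. Footprints in more KO than WT libraries numbered 9, or 23.1%, against 11.5% of all footprints. They were Cd36 footprint 3, App footprint 2, Serinc1 footprints 2, 4 and 5, Sh3bgrl footprint 6, Rab1 footprints 1 and 5 and Anxa5 footprint 1. All but Rab1 footprint 1 (88.9%) were higher in KO by occupancy, as were 91.4% of the 720 such footprints in the whole table. Depth per library is unknown, since the table holds no read counts, and its part in these numbers was not tested.

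The ratio was higher where more KO libraries held a footprint. The median log2 ratio was -1.94 for the 10 footprints in 0 KO libraries, -0.64 for the 10 in 1, 0.16 for the 8 in 2 and 0.57 for the 11 in 3. In the whole table these medians were -1.32, -0.04, 0.55 and 0.53. Both measures come from the same libraries and are not independent. Of the 18 footprints held by at least 2 libraries of both genotypes, 13 were higher in KO and 5 lower, and 68.5% of the 2196 such footprints in the whole table were higher. This set leaves out footprints low in KO by construction. Equal values also recurred: 12 of the 38 KO values above 0 and 1 of the 39 WT values were shared exactly with another footprint of the table, which is 31.6% and 2.56% of the members' values. Of all footprints, 33.3% of KO values above 0 and 18.6% of WT values were shared.

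The median G+C content of the members was 34.6% (25.6% to 53.7%), against 42.9% for all footprints, and the median over their whole 3′ UTRs was 35.8%, against 43.9% for 2211 genes with a 3′ UTR and a footprint. Over all 6270 footprints the log2 ratio followed G+C content with a Spearman correlation of 0.32, and over the 39 it was 0.04 (-0.04 without the footprint listed at 0). These correlations run across footprints of the same 6 libraries, several of them on 1 transcript, and the difference between them was not tested.

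**Figure D4:**
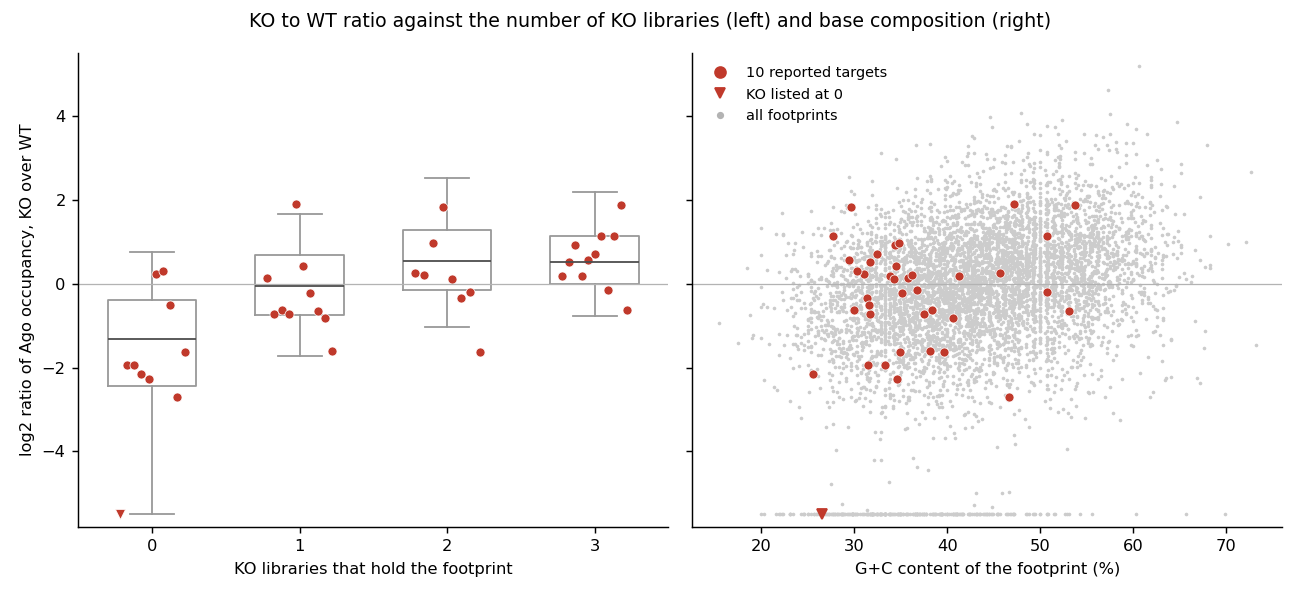
Log2 ratio of Ago occupancy, KO over WT, against the number of KO libraries that held the footprint (left) and against G+C content in % (right), with the members in red. Grey boxes give median, quartiles and the central 90% of all 6270 footprints, grey points are all footprints, and the lowest values, among them the member listed at 0 in KO (triangle) and the other footprints listed at 0, are drawn on the bottom line. Members in 0 KO libraries have a median of -1.94 and those in 3 a median of 0.57.

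A mooring-like sequence was looked for in the 3′ UTRs, since it marks the known editing site of apolipoprotein B mRNA. The search took the 9 letters TGATCAGTA on the sense strand only, with at least 7 letters equal, starting 2 to 8 nt after a C that has A or T on both sides. Such a match was present in 5 of the 10 member 3′ UTRs, App, Sh3bgrl, Tmem30a, Cmtm6 and Rab1, against 62.6% of the 2211 3′ UTRs. Per length the members held 0.532 matches per kb and all 3′ UTRs 0.643 per kb. With at least 8 letters equal it was present in 2 of the 10, App and Rab1, or 20.0%, against 9.77% of all. These matches are not edited sites, and B2m, Cd36, Serinc1, Anxa5 and Sep15 having none says only that these letters are not there.

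The matches in 8 of 9 letters, and those whose C lies inside or within 50 nt of an Ago footprint, are given with the C and the matched window in capitals, on the strand of the gene.
App, chr16:84955098-84955114, minus strand: tCttttccTGATCACTA
Rab1, chr11:20125467-20125484, plus strand: aCtgtatggTGATAAGTA
Tmem30a, chr9:79618545-79618558, minus strand: tCataTGTTCAGTT
Rab1, chr11:20125822-20125836, plus strand: tCttcaTGCTCAGTC
Sh3bgrl, chrX:106356848-106356866, plus strand: aCagtaatttTGATGAATA

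The Tmem30a match, in 7 of 9 letters, was the only one that lay wholly inside a footprint. That was footprint 2, the strongest of the gene, with 0.702 in KO and 1.16 in WT. Among the members 2.56% (1 of 39) of footprints held such a match, against 4.77% of all. The C of the last Rab1 match lay inside footprint 3, whose occupancy was 0.124 in KO and 0.196 in WT. The C of the App match, in 8 of 9 letters, lay 38 nt upstream of footprint 2, which had 0.201 in KO and 0.105 in WT. The C of the Sh3bgrl match lay 35 nt downstream of footprint 4, with 0.228 in KO and 0.286 in WT, and that of the other Rab1 match, in 8 of 9 letters, was 231 nt from the nearest footprint, number 2. The footprint nearest to the C was thus higher in KO in App and lower in Tmem30a, Sh3bgrl and Rab1, at distances up to 231 nt. Of all footprints 51.3% were lower, and a link between match and direction was not tested.

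Of 7 genes for APOBEC1 and proteins reported to work with it, 5 had footprints, and all 5 had lower summed occupancy in KO, the direction of 52.2% of all genes. A1cf and Khsrp had none. Apobec1 itself had 0.312 in KO and 0.372 in WT over 3 footprints, which does not check the genotype because the deleted part of the gene is not given. Rbm47, an RNA-binding cofactor of the enzyme, had 3.31 in KO and 4.57 in WT, and Celf2, a splicing and editing regulator, had 6.01 in KO and 8.12 in WT. Syncrip, an RNA-binding protein, had 1.69 in KO and 2.13 in WT. Hnrnpab, also an RNA-binding protein, had 0.560 in KO and 2.08 in WT (log2 ratio -1.89), and was the only one at least 2-fold lower. Their 24 footprints split into 8 higher and 16 lower in KO (against 51.3% lower in the whole table), with a median log2 ratio of -0.27.

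Of 23 other transcripts listed from memory as edited in earlier work, 9 had footprints. Of these, 5 were higher in KO by sum (Actr2, Atf2, Iqgap1, Mtmr2 and Tmbim6) and 4 lower (Usp25, Rnf128, Rrbp1 and Kctd12). Tmbim6, an inhibitor of cell death in the endoplasmic reticulum, was higher at each of its 4 footprints, with sums of 0.576 in KO and 0.442 in WT. Rrbp1, a ribosome-binding protein of the same organelle, had 0.345 in KO and 0.705 in WT (log2 ratio -1.03). Their 39 footprints split into 22 higher and 17 lower, with a median log2 ratio of 0.24. Over all genes 47.8%, and over all footprints 48.7%, were higher.

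The macrophage label was set against marker genes of several cell types. Of 10 macrophage genes, 6 had footprints (Emr1, Itgam, Csf1r, Fcgr1, Lyz2 and Cd14), with sums of 0.0380 to 2.75 in KO and 0.0694 to 1.65 in WT. None of the genes listed for T cells, B cells, neutrophils or stromal fibroblasts had one, and of 5 genes for dendritic cells or osteoclasts Nfatc1 alone did, with 1.72 in KO and 1.25 in WT. A gene without a footprint may still be transcribed.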

How the data were processed

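Ago HITS-CLIP was made from macrophages of 3 KO and 3 WT mice, and samples were grouped by title and genotype label. Per the series design text, the authors joined reads with at least 5 nt of overlap into clusters of at least 8 reads. The deposited occupancy is the authors' ratio of the signal at the cluster peak to transcript expression, on mm9. The submitters' processing notes name Bowtie 0.12.8 and bedtools. The way libraries were combined or scaled was not given in any source used here. Read counts are not part of the table, so the depth is unknown and no interval that needs it is given.

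Footprints were placed by strand on GENCODE vM1 (NCBIM37, the assembly of mm9), and sequences were read with samtools 1.23.1 and pysam 0.24.0. Log2 ratios used a pseudocount of 0.00161, 50% of the smallest value above 0, which understates ratios of low values. With 1 value per genotype no test was possible, and a 2-fold rule took its place. Of 29 miRNA families listed, 28 had a mature sequence. The seed and mooring searches were tested on simulated data, where 200 of 200 planted sites of each kind were found. The members, gene lists and miRNA families were chosen with earlier results of these data known, partly from memory. Every member footprint and every measured gene of the editing lists was to be named, with 1 nearest gene per member. Correlations were computed with scipy 1.17.1. A marker gene and the seed sites of 1 footprint are not reported here.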

Additional observations from a re-analysis of the deposited data

How the results depend on the processing

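The even split of the 39 footprints depended on which of them were counted. The direction of Sh3bgrl, Rab1 and Anxa5 depended on how their footprints were combined. The other genes kept their direction in each setting where they had a value, though not always its size. Among the 8 whose mean of KO and WT occupancy reached the median of the table, the median log2 ratio turned to 0.37, with 7 higher and 1 lower in KO, and 2 and 0 past 2-fold. In the whole table that filter gave 0.07, with 52.2% higher in KO. Among the 18 in at least 2 libraries of both genotypes it was 0.22, with 5 lower in KO. Past 2-fold were 3 higher and 1 lower. The 2196 footprints of the whole table that passed this cut had a median of 0.42, above that of the members. Among the 3 members in all 6 libraries it was 0.18, with 2 higher, 1 lower and 0 past 2-fold either way. No whole-table value is given here for these 2-fold counts or for the set in all 6 libraries. By construction, both sets by library number drop footprints that are low in KO, and the cause of the turn at high occupancy was not tested. The mean used for that cut is made from the same KO and WT values as the ratio, so the 2 are not independent. Rab1 footprint 1, lower in KO, fell just short, with a mean of 0.4252 against a cut of 0.4253. With a pseudocount of 1, which exceeds most values, 0 footprints passed 2-fold higher and 0 lower, and Sep15 moved to -0.12. By the median over its footprints in place of the sum, Sh3bgrl turned to -0.67, Rab1 to -0.73 and Anxa5 to 0.62, and by the strongest footprint alone Sh3bgrl stood at 1.15 and Rab1 at 1.14. Of the 8 genes with a footprint in at least 2 libraries of both genotypes, 2 were lower in KO. Tmem30a and Sep15, both lower in KO by sum, had no such footprint and dropped out. No share over all genes is given for this filter. Counting any KO occupancy above 0 as presence gave 38 footprints in place of 19. A mooring-like match was found in 2 of the 10 member 3′ UTRs with 8 of 9 letters, against 9.77% of all 2211. With 6 of 9 letters it was in 10 of the 10 (96.1% of all), and with a spacer of 4 to 6 nt in 3 (42.8% of all). It was inside 0 member footprints with 8 letters, against 0.399% of all footprints. With 7 letters it lay, as a whole match from the base before the C to the last letter, within 50 nt of 3 (7.69%, against 11.3% of all). The whole-match rule leaves out the Sh3bgrl match, whose C is 35 nt from footprint 4. Seed matches of bases 2 to 7 followed by A raised the number of footprints from 7 to 12 (30.8%, against 31.3% of all). No paired analysis was possible because the table holds 1 value per genotype and no replicate numbers, and for the same reason no library could be left out.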
